A study of Homo sapiens with 11 samples.

Results

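ENAH, the other Ena/VASP proteins VASP and EVL, and 7 actin cytoskeleton genes (ACTB, ACTG1, ACTA2, TAGLN, MYL9, TPM1 and CNN1) were followed by name through the RNA and chromatin data of HK2 cells. They make up 10 of the 58288 genes in the RNA-seq data and 10 of its 19659 protein-coding genes. The list was drawn up with the difference in ENAH transcripts between libraries already known, so that difference is a description and supports nothing. HK2 is an immortalised epithelial line from the proximal tubule of an adult human kidney, and every library came from it under 1 condition, with no treatment or genotype to compare. The paper describes 1 culture medium for the line, with serum, antibiotics and a small amount of DMSO. RNA-seq of rRNA-depleted RNA had 2 libraries, and ChIP-seq of H3K4me3 (a promoter mark), H3K27ac (a mark of active promoters and enhancers) and H3K27me3 (a repressive mark) had 2 replicates each. Nothing in the labels ties replicates to separate cultures, so the spread given as an SD may be technical. The input DNA and the HiChIP samples are not used here.

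Actin monomers assemble into filaments that shape the cell and, with myosin, pull on its contacts. Ena/VASP proteins sit at the growing end of filaments, where they hold off capping and pass on profilin-bound actin, and are concentrated at focal adhesions, cell junctions and the leading edge. Tropomyosins lie along the filament and set which proteins can bind it, while transgelin and calponin are filament-binding proteins best known from smooth muscle. In the proximal tubule, filaments fill the core of the brush border and ring the cell at its junctions.

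All 10 genes were measured, and 9 of them had at least 1 FPKM (fragments per kilobase of transcript, scaled to the mapped fragments of the library) in each of both libraries. Over all protein-coding genes 58.7% did so. The median of the members' mean FPKM was 85.5. The 10 genes together took 1.09% of all FPKM in library 1 and 1.12% in library 2. ACTB, the main cytoplasmic actin, was the gene of highest level here and ranked 8 among protein-coding genes, and ACTA2, the smooth muscle actin, was the lowest, at rank 12648. The levels spanned the range from the most abundant messages of the cell to one that was barely detected.

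**Figure D1:**
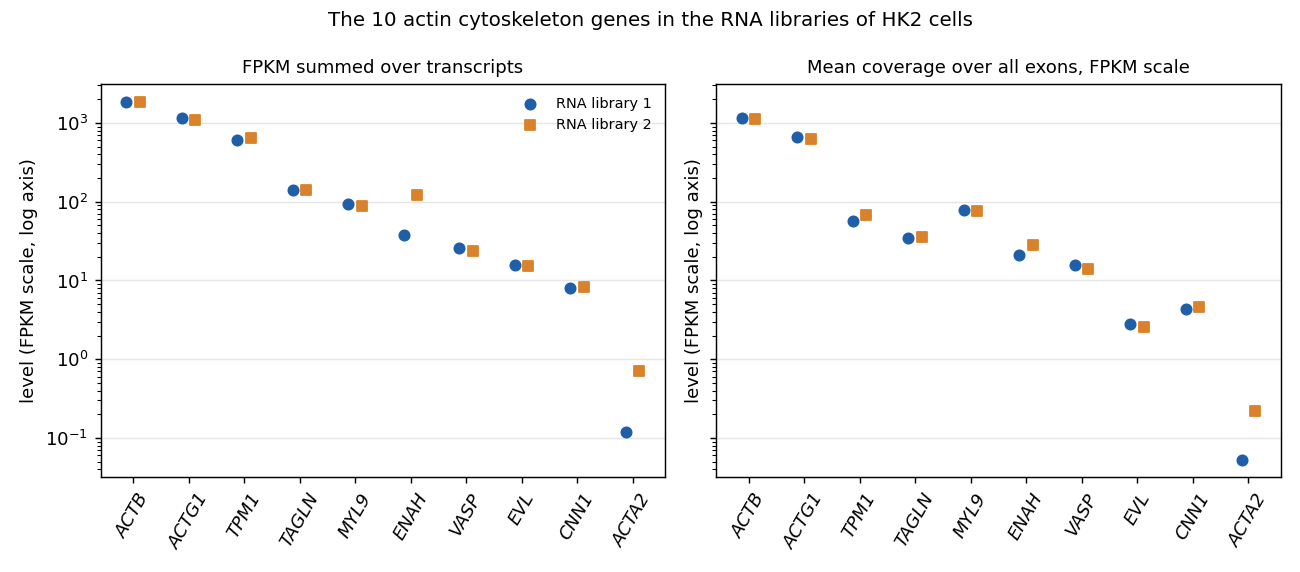
Level of each of the 10 genes (x axis) in RNA library 1 (circles) and library 2 (squares), on a log axis in FPKM summed over transcripts (left) and as mean coverage over all annotated exons on the FPKM scale (right). ENAH was 3.24 times higher in library 2 by summed FPKM and 1.35 times higher by exon coverage, while ACTA2 was the lowest gene in both panels.

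ENAH, the largest Ena/VASP protein, had a summed FPKM of 37.3 in library 1 and 120.9 in library 2. The mean was 79.1 ± 59.1 (SD, n = 2), an SD of 74.8% of the mean. VASP, the founding member of the family, had 26.2 and 23.7 FPKM, or 24.9 ± 1.75 (SD, n = 2). EVL, the third member, had 15.6 and 15.1 FPKM, or 15.4 ± 0.411 (SD, n = 2). The ranges of the 3 genes did not overlap, and in both libraries the order ran from ENAH through VASP to EVL. ENAH made up 47.1% of the family's FPKM in library 1 and 75.7% in library 2.

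ENAH was the single member to differ by over 2-fold between the libraries. A log2 difference of more than 1 on log2(FPKM + 0.1), at a mean FPKM of at least 1, was counted, and 1.51% of 11748 protein-coding genes passed it. The log2 difference of ENAH, library 2 over library 1, was 1.70. Only 0.247% of the same genes were over 3-fold higher in library 2. No test was possible, since this sets 1 library against another of the same condition.

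The difference shrank when aligned bases were summed over transcripts in place of FPKM. For this the coverage that the deposited data give per transcript was multiplied by the transcript's length and summed over transcripts. The sum was divided by the coverage that 1 FPKM stands for in that library and averaged over all annotated exonic bases. This measure, called exon coverage here, is on the FPKM scale and rests on the values that StringTie gave each transcript. Values for single exons are the coverage given per exon, summed over transcripts and divided by the same factor. ENAH then stood at 20.9 in library 1 and 28.2 in library 2, a ratio of 1.35. That average runs over 15044 exonic bases, of which the longest version of the last exon holds 10978. It lies far below the exons shared by at least 4 transcripts, whose median coverage was 94.4 in library 1 and 104.9 in library 2. At a mean of at least 1 FPKM, no member differed by over 2-fold by exon coverage, against 1.55% of the same 11748 genes. ACTA2, which lies below that level, had 0.0533 and 0.221. Of the 177 genes over 2-fold apart by summed FPKM, 52 (29.4%) were not so by exon coverage, so ENAH was 1 of 52 such genes. The share of ENAH in the Ena/VASP family was 52.8% in library 1 and 62.9% in library 2 on this scale.

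Of the 9 annotated ENAH transcripts, 7 had a mean FPKM of at least 1, and 4 of them were over 2-fold apart between the libraries. Over all members, 66 transcripts reached that mean and 12 of them were over 2-fold apart, against 19.6% of 28338 transcripts of protein-coding genes. The longest ENAH transcript, ENST00000366844.7 (13168 bases, 15 exons), had 20.7 FPKM in library 1 and 6.67 in library 2. ENST00000635051.1 had 6.76 and 2.15 FPKM. The other two went the other way. ENST00000366843.6 (2758 bases, 14 exons) had 1.05 FPKM in library 1 and 69.5 in library 2, and ENST00000358675.6 (3655 bases, 9 exons), which later annotation lists as a retained intron, had 3.29 and 36.4. The remaining 3, ENST00000284563.7, ENST00000391874.2 and ENST00000497899.6, had between 1.25 and 2.18 FPKM in either library.

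The leading ENAH transcript therefore differed between libraries. The summed absolute difference of transcript shares divided by 2, which is 0 for equal usage and 1 for none in common, was 0.760 for ENAH. That placed it at rank 91 of 8371 genes with more than 1 transcript and a mean FPKM of at least 5, whose median was 0.110, and 1.09% of them were at or above it. TPM1 had 0.405 and rank 900, with 10.8% of genes at or above it.

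The body of ENAH was covered almost alike in both libraries. Of the exons with limits shared by at least 4 transcripts, 10 had a mean coverage of at least 1 on the FPKM scale, and their median coverage was 94.4 in library 1 and 104.9 in library 2. The ratio of library 2 to library 1 had a median of 1.14 and ran from 1.03 to 2.71. The highest ratio was that of the 166-base exon next to the first (GRCh38 chr1:225567249-225567414), with 16.2 and 43.9. Without it the ratios of the other 9 ran from 1.03 to 1.34. The libraries thus parted at the ends of the gene.

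At the 3′ end, the last exon has several annotated lengths that share 1 splice site. The version that runs to the distal end (10978 bases) was covered at 13.7 in library 1 and 5.27 in library 2. A version of 728 bases had 0.374 and 76.4, and one of 2333 bases had 3.53 and 52.0. In aligned bases, the distal version took 94.2% of all last-exon sequence in library 1 and 24.6% in library 2. The last exons together held 51.1% of the aligned bases of ENAH in library 1 and 55.4% in library 2. The share given to last exons as a whole was thus close in both libraries, and its division among lengths was not. Coverage within an exon is an average that StringTie allotted to each transcript, so it does not show where along the last exon the reads fell.

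**Figure D2:**
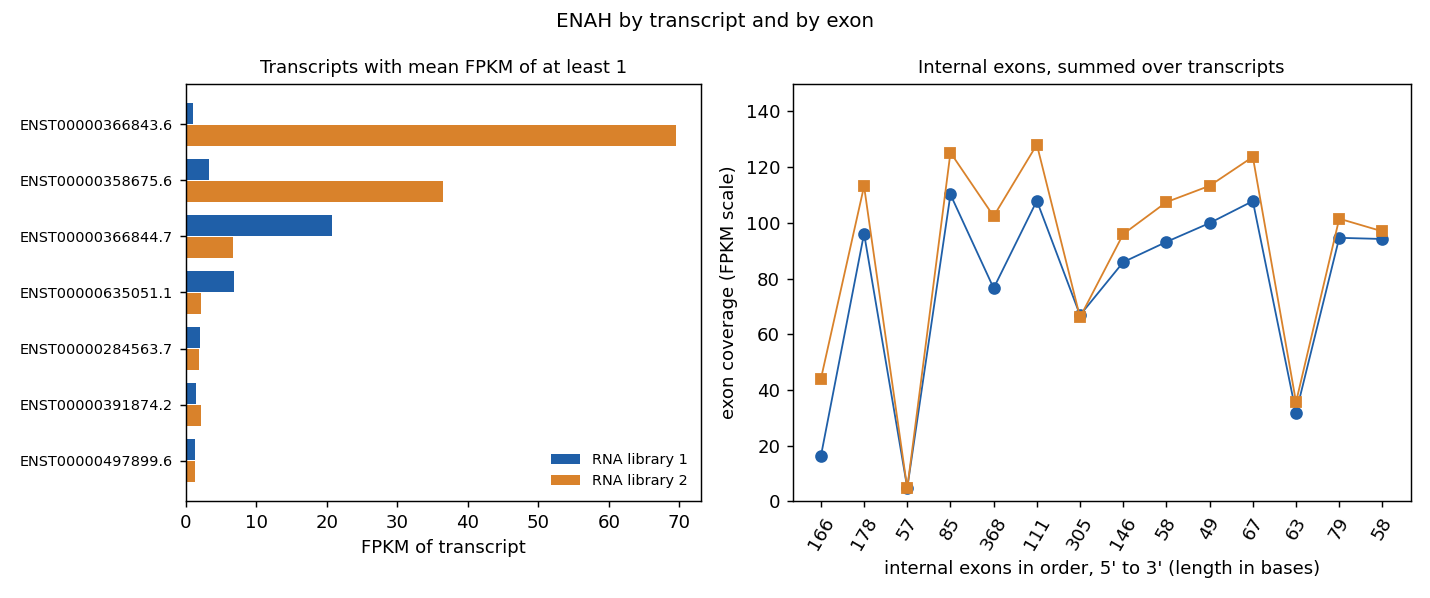
FPKM of the 7 ENAH transcripts with a mean of at least 1 (left, bars) and coverage of the internal ENAH exons on the FPKM scale, in order from 5′ to 3′ with lengths in bases (right), in library 1 (blue) and library 2 (orange). Transcripts such as ENST00000366843.6 (1.05 and 69.5 FPKM) are far apart between libraries, while the exon profiles of both libraries have low points at the 57-base and 63-base exons and at the 166-base exon next to the first, where their ratio is highest (16.2 and 43.9).

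A pair of alternative ENAH exons had similar shares in both libraries. ENAH is known for a 63-base exon, 11a, that epithelial cells include, and for a 57-base exon, INV, described in invasive tumour cells. These 2 exons are printed in full because their level separates forms of the protein. They were read from GRCh37, minus strand, at chr1:225692693-225692755 (63 bases) and chr1:225723209-225723265 (57 bases), 5′ to 3′, with the exon bases in capitals.
ENAH 63-base exon: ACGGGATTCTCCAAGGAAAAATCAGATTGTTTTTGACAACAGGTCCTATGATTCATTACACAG
ENAH 57-base exon: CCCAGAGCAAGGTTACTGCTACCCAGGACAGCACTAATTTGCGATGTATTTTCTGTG

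The 63-base exon was covered at 31.8 on the FPKM scale in library 1 and 35.6 in library 2. The mean of the exons on either side was 101.2 and 112.6. The exon thus stood at 31.4% of its neighbours in library 1 and 31.7% in library 2, or 31.5% ± 0.166 (SD, n = 2). The 57-base exon was covered at 4.85 and 4.72, which was 4.70% and 3.96% of its neighbours, or 4.33% ± 0.524 (SD, n = 2). Each of the ranges was narrow, and the 57-base exon lay below the 63-base exon in both libraries. A ratio to neighbouring exons is a share of coverage and not a count of molecules.

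ACTB and ACTG1 encode the cytoplasmic actins, which are present in nearly every cell. ACTB had 1872 FPKM in library 1 and 1866 in library 2, or 1869 ± 4.06 (SD, n = 2). ACTG1 had 1155 and 1098 FPKM, or 1126 ± 40.0 (SD, n = 2), and ranked 16. The libraries did not overlap between the genes, and ACTB was 1.66 times higher on the mean. ACTB made up 61.8% of their sum in library 1 and 62.95% in library 2, and 64.1% and 64.7% by exon coverage. Actin genes and their processed copies share long stretches of sequence, and how multiply mapped reads were divided among them is not given in the sources used here, so the split is uncertain.

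ACTB transcripts show how far the division within a gene can go. ENST00000462494.5, listed as a retained intron in the later annotation, had the highest ACTB value, with 1078 FPKM in library 1 and 872.3 in library 2. ENST00000425660.5, listed as a target of nonsense-mediated decay, had 309.5 and 433.8. ENST00000331789.9, which starts upstream of them, had 384.0 and 435.9. Of 11 ACTB transcripts with a mean FPKM of at least 1, only ENST00000464611.1 was over 2-fold apart, at 6.36 and 17.2. None of the 14 such ACTG1 transcripts was.

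Among 6 actin genes, the cytoplasmic pair alone had at least 1 FPKM in each library. ACTA2, the actin of vascular smooth muscle and myofibroblasts, had 0.118 FPKM in library 1 and 0.703 in library 2, or 0.410 ± 0.414 (SD, n = 2). ACTA1, the skeletal muscle actin, was listed at 0 in both. In library 2, transcripts from the upstream start of ACTA2 accounted for 0.536 of its 0.703 FPKM, and in library 1 these were listed at 0. Transcripts from the main start had 0.118 and 0.167 FPKM. The upstream start lies beside that of FAS, a gene on the opposite strand with 2.97 ± 0.269 FPKM (SD, n = 2). Whether counting used strand is not given in the sources used here, so reads of the overlapping ends cannot be told apart.

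TAGLN, MYL9 and CNN1 are often read together as smooth muscle genes. TAGLN (transgelin) had 139.0 FPKM in library 1 and 141.3 in library 2, or 140.2 ± 1.62 (SD, n = 2). MYL9, a regulatory light chain of myosin II, had 94.7 and 88.9, or 91.8 ± 4.09 (SD, n = 2). CNN1 (calponin 1) had 8.04 and 8.25, or 8.15 ± 0.151 (SD, n = 2). These 3 genes did not overlap each other and lay well above ACTA2, by 19.9 times for CNN1. MYL9 and ENAH were the only neighbours in the order of the 10 genes whose library values overlapped.

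Of 7 smooth muscle markers, SMTN (smoothelin) alone reached 1 FPKM in both libraries, with 46.7 ± 0.660 (SD, n = 2). MYOCD (myocardin), the coactivator that drives the smooth muscle programme, was listed at 0. The summed FPKM of these 7 genes was 47.1 in library 1 and 48.1 in library 2. The defining marker MYH11 stood at 0.0734 ± 0.0122 (SD, n = 2). Of 6 fibroblast and pericyte markers 2 passed, COL1A1 with 40.1 ± 0.290 and LUM with 3.41 ± 0.103 (SD, n = 2), and PDGFRA was lowest at 0.0220. The summed FPKM of this list was 46.0 and 44.6. Thus TAGLN and MYL9 were measured at high levels in cells where MYH11 was near 0 and MYOCD at 0. In bulk RNA, fewer cells of a type and less RNA per cell cannot be told apart.

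TPM1 encodes the alpha tropomyosins. It had 600.6 FPKM in library 1 and 649.4 in library 2, or 625.0 ± 34.4 (SD, n = 2), rank 65. By exon coverage it stood at 57.6 and 67.3, and its rank was 428, because its 33 transcripts span 12492 exonic bases of which much is hardly covered. Between the libraries, 6 of the 23 TPM1 transcripts at a mean FPKM of 1 or more were over 2-fold apart. ENST00000404484.8 had 0.510 FPKM in library 1 and 257.0 in library 2. ENST00000558544.5 had 172.5 in library 1 and was listed at 0 in library 2. The last exons of ENST00000404484.8 and ENST00000558544.5 share a first base and end at GRCh38 chr15 positions 63071884 and 63071882. In libraries 1 and 2 they were covered at 0.250 and 390.9 for the former, and at 229.1 and 0 for the latter. Whether this exchange lies in the RNA or in the division of reads between ends that nearly coincide was not tested. ENST00000559556.5, the leading transcript, had 282.2 and 270.9.

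TPM1 is known to be transcribed from an upstream start, which gives long tropomyosins, and from an internal one, which gives short forms. Transcripts from the upstream start had 353.1 FPKM in library 1 and 325.6 in library 2, which was 58.8% and 50.1% of the gene. Transcripts from the internal start had 202.3 and 274.5 FPKM, or 33.7% and 42.3%. The first exons themselves gave other levels. The first exons at the upstream start were covered at 375.8 and 387.1 on the FPKM scale, or 381.5 ± 7.998 (SD, n = 2). The first exons at the internal start were covered at 1.97 and 1.38, or 1.67 ± 0.416 (SD, n = 2). The upstream first exons were therefore 191 and 280.3 times higher, whereas by transcript FPKM the starts were within 2-fold of each other. The FPKM of transcripts annotated from the internal start was thus not matched by coverage of their own first exons.

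**Figure D3:**
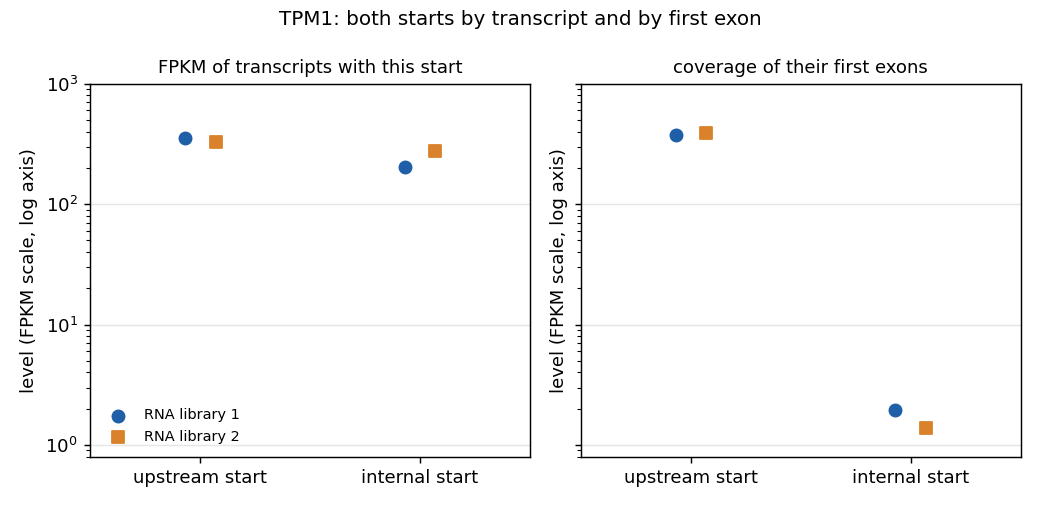
TPM1 by start, in RNA library 1 (circles) and library 2 (squares), on a log axis on the FPKM scale, as the summed FPKM of transcripts from each start (left) and as the coverage of their first exons (right). The starts are close by transcript FPKM (353.1 and 325.6 upstream, 202.3 and 274.5 internal) and far apart by first-exon coverage (375.8 and 387.1 against 1.97 and 1.38).

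Both TPM1 starts carried promoter marks. At GRCh37, the start of ENST00000558544.5 (chr15, position 63340699) lay inside an H3K4me3 peak in replicate 1 (chr15:63340670-63341670) and in replicate 2 (chr15:63340620-63341101). It also lay inside an H3K27ac peak of 20175 bp in replicate 1, and the nearest H3K27ac peak of replicate 2 began within 1 kb of it. The start of ENST00000559556.5 (position 63334957) lay inside H3K4me3 peaks of 6739 and 2586 bp and H3K27ac peaks of 20175 and 3470 bp. The H3K27ac peak of 20175 bp is the same peak for both starts, so it does not mark them separately. Another gene, TPM1-AS, also has a TSS within 1 kb of a TPM1 TSS.

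Within TPM1, 2 pairs of alternative exons could be read. The long forms carry either exon 2a, the smooth muscle exon, or exon 2b. Both have 126 bases, and they match at 62 of the 126 positions (49.2%). They are printed from GRCh37, plus strand, at chr15:63335905-63336030 and chr15:63336226-63336351, because their ratio sets the smooth muscle form of the protein apart. Capitals mark the 64 positions that differ between them.
TPM1 exon 2a: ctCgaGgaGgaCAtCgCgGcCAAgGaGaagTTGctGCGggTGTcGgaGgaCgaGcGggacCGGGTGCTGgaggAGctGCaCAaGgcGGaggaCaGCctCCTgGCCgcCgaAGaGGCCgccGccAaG
TPM1 exon 2b: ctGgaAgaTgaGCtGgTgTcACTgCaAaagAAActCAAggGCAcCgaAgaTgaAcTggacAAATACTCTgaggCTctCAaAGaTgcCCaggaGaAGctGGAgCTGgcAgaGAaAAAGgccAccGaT

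Exon 2a was covered at 6.23 on the FPKM scale in library 1 and 5.48 in library 2, and exon 2b at 472.3 and 469.4. Exon 2a made up 1.303% and 1.155% of the pair, or 1.23% ± 0.105 (SD, n = 2). These values count exons with exactly these limits. Counting every annotated exon that spans all bases of 2a or 2b, retained introns included, exon 2a stood at 31.2 and 31.6 and made up 6.05% ± 0.0512 of the pair (SD, n = 2). The smooth muscle exon was the minor one by either count. The pair of 76-base exons known as 6a and 6b was used near evenly, with 53.8% and 54.1% for the upstream exon, or 54.0% ± 0.173 (SD, n = 2).

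The wider actin network, taken from lists by role, was expressed broadly. Of 8 Ena/VASP ligands all 8 reached 1 FPKM in both libraries. Profilin 1 (PFN1), which delivers actin monomers, was the highest at 753.4 ± 6.74, and lamellipodin (RAPH1), which brings Ena/VASP proteins to the leading edge, the lowest at 3.37 ± 0.543 (SD, n = 2). Another ligand, LPP, had 7.51 FPKM in library 1 and 13.6 in library 2, under 2-fold apart. By exon coverage it had 1.92 and 6.10, over 2-fold apart, so this measure did not shrink every difference. All 12 genes of monomer binding, severing and capping passed. The thymosin TMSB10, which sequesters actin monomers, had 3362 ± 78.7 FPKM (SD, n = 2) and stood above ACTB. In this list DSTN (64.7 and 136.0 FPKM) and CFL2 (10.5 and 28.8), both of the cofilin family that severs filaments, were over 2-fold apart between libraries, while by exon coverage neither was. CAPZA2, a capping protein subunit, was the lowest of the list at 19.6 ± 2.88 (SD, n = 2).

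Of 15 genes of the Arp2/3 complex and its activators, which nucleate branched filaments, 14 passed, with ARPC3 highest at 224.9 ± 0.907 and WAS, the blood-cell activator, lowest at 0.225 ± 0.00750 (SD, n = 2). Of 13 formins, which nucleate straight filaments, 10 passed, from DIAPH1 at 35.4 ± 13.5 down to DAAM2 at 0.0538 ± 0.0477 (SD, n = 2). Of 13 crosslinking and adhesion genes 11 passed, led by filamin A (FLNA) at 719.9 ± 26.96 (SD, n = 2). Villin (VIL1), the bundling protein of the brush border core, was listed at 0 in library 1 and at 0.0224 FPKM in library 2. Of 11 non-muscle myosin II genes 10 passed, with the heavy chain MYH9 at 563.3 ± 6.55 and MYH14 at 0.00777 ± 0.000151 (SD, n = 2).

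Relatives of the members split by type. All 7 genes of a list of calponins, transgelins and caldesmon (CALD1) passed, led by TAGLN2 at 350.1 ± 29.6 (SD, n = 2), and CNN1 was the lowest of them. Of 8 tropomyosins and tropomodulins, which cap the pointed end, 4 passed. TPM1 was the highest and TPM2, the tropomyosin of smooth and slow skeletal muscle, the lowest at 0.0288 ± 0.00622 (SD, n = 2). TPM3 had 71.4 FPKM in library 1 and 183.6 in library 2, over 2-fold apart, and 19.9 and 38.7 by exon coverage. SRF, the factor that binds CArG boxes, and its coactivators MKL1 and MKL2 all passed, with MKL1 highest at 24.7 ± 0.970 (SD, n = 2).

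**Figure D4:**
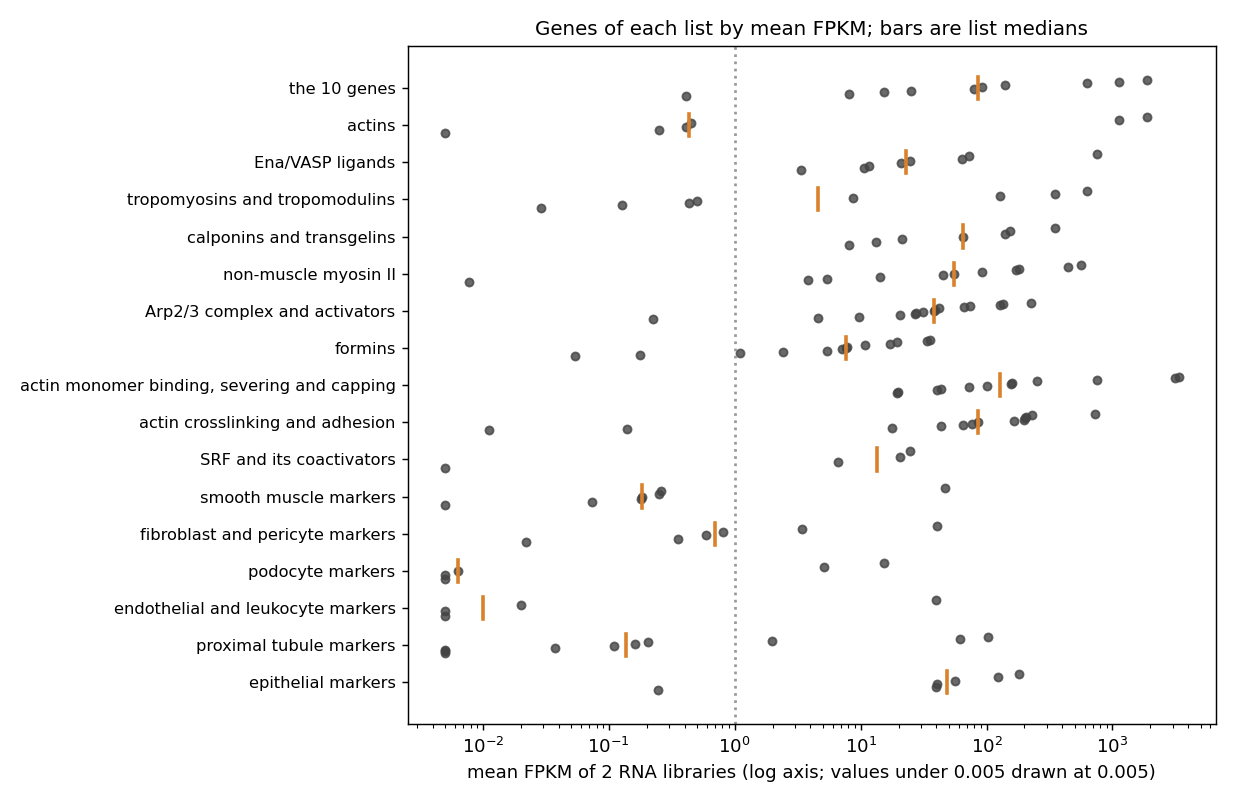
Mean FPKM of the 2 RNA libraries (x axis, log scale, with values under 0.005 drawn at 0.005) for each gene (points) of the lists by role and of the cell type marker lists, with a bar at the median of each list. The 10 genes have a median of 85.5, and the dotted line marks 1 FPKM, below which most genes of the actin list and most proximal tubule, smooth muscle, fibroblast and pericyte, podocyte, and endothelial and leukocyte markers lie.

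The label of the cells was held against its markers. Of 6 epithelial markers 5 passed, with KRT8 at 181.6 ± 3.73 and E-cadherin (CDH1) lowest at 0.247 ± 0.0520 (SD, n = 2). Of 10 proximal tubule markers 3 passed, led by PAX8 at 102.1 ± 2.79 (SD, n = 2), while LRP2 (megalin), HNF4A and SLC22A6 were listed at 0. The other proximal tubule markers that passed were GGT1 at 61.1 ± 4.30 and SLC5A2 at 1.96 ± 0.565 (SD, n = 2). Keratins, PAX8 and GGT1 were thus present, SLC5A2 was low, and several defining proximal tubule genes were not detected. Of 5 podocyte markers 2 passed, SYNPO at 15.4 ± 1.02 (SD, n = 2) leading and WT1 listed at 0. Of 5 endothelial and leukocyte markers 4 were matched in the RNA data, and PECAM1 was not. Among those 4 CD68 alone passed, at 39.6 ± 4.003 (SD, n = 2), with VWF and PTPRC listed at 0.

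The promoters of the 10 genes were then read from the peak lists in GRCh37 coordinates. A gene was counted where a peak lay within 1 kb of any of its annotated transcription start sites (TSSs) in both replicates. For H3K4me3 this held for 9 of 10 genes, all except TAGLN, against 69.6% of 20163 protein-coding genes. For H3K27ac it held for 9 of 10, all except CNN1, against 54.5%. For H3K27me3 it held for 0 of 10, against 11.2%. Taking only the TSS of the canonical transcript, the counts were 6 for H3K4me3 against 67% of 19881 genes, 7 for H3K27ac against 50.9%, and 0 for H3K27me3 against 9.35%. Peaks near the members' other TSSs made the difference, and 5 of the 10 genes have a TSS of another gene within that window.

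ENAH (ENSG00000154380, chr1:225674467-225840844, minus strand) carried 1 H3K4me3 peak over its canonical TSS at 225840825 in each replicate, 6504 and 2214 bp wide. Of the peaks in these lists 0.349% and 2.44% were at least as wide. H3K27ac peaks over the same TSS were 10846 and 7384 bp wide. Inside the gene, H3K27ac was called in 14 peaks in replicate 1, covering 16.4% of the gene, and in 3 peaks in replicate 2, covering 2.23%. All bases of the latter lay within the former. The replicate 1 list holds 57761 peaks with a median width of 1357 bp, and the replicate 2 list 38639 with 657 bp, so the lists differ throughout the genome as well. No H3K27me3 peak touched ENAH in either replicate.

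VASP (chr19:46009837-46030247, plus strand), like ENAH, had H3K4me3 and H3K27ac peaks over its canonical TSS in each replicate. Its H3K4me3 peaks were 3870 and 3619 bp wide. Its H3K27ac peaks, of 4294 and 3070 bp, were narrower than those of ENAH in both replicates. EVL (chr14:100437786-100610573, plus strand) differed from both genes. Its canonical TSS at 100531759 had no peak of any mark within 1 kb, and the peaks that both replicates placed near a TSS lay at the most upstream one, at 100437786. There H3K4me3 was called at chr14:100437386-100439663 (replicate 1) and chr14:100437388-100439103 (replicate 2). Replicate 2 alone had a further H3K4me3 peak near a TSS, at chr14:100601693-100601965. In RNA, the transcript from that start, ENST00000402714.6, had 3.07 and 3.02 FPKM, about 20% of the gene. An H3K27ac stretch inside EVL, away from any TSS, was called in both replicates (chr14:100496019-100499865 and 100496422-100499622).

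ACTB and ACTG1 had the broadest H3K4me3 peaks relative to their lists in replicate 2. The ACTB peak of 5253 bp was matched or exceeded by 0.0245% of that list, and the ACTG1 peak of 6337 bp by 0.00544%. In replicate 1 the peaks were 5242 and 7226 bp wide, matched or exceeded by 1.01% and 0.192% of that list. H3K27ac peaks at these genes were 7300 and 4422 bp wide for ACTB and 8578 and 4949 bp for ACTG1. For TPM1, H3K27ac peaks covered 95.1% of the gene in replicate 1 and 26.4% in replicate 2. The active marks at ACTB, ACTG1 and TPM1 were wide in both replicates, with the extent set differently by each list. Width did not follow level across the members. The H3K27ac peaks of ENAH were matched or exceeded by 0.842% and 0.293% of their lists, against 2.2% and 1.58% for ACTB. TAGLN, at 140.2 FPKM, had an H3K27ac peak of 654 bp in replicate 2, matched or exceeded by 50.3%.

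**Figure D5:**
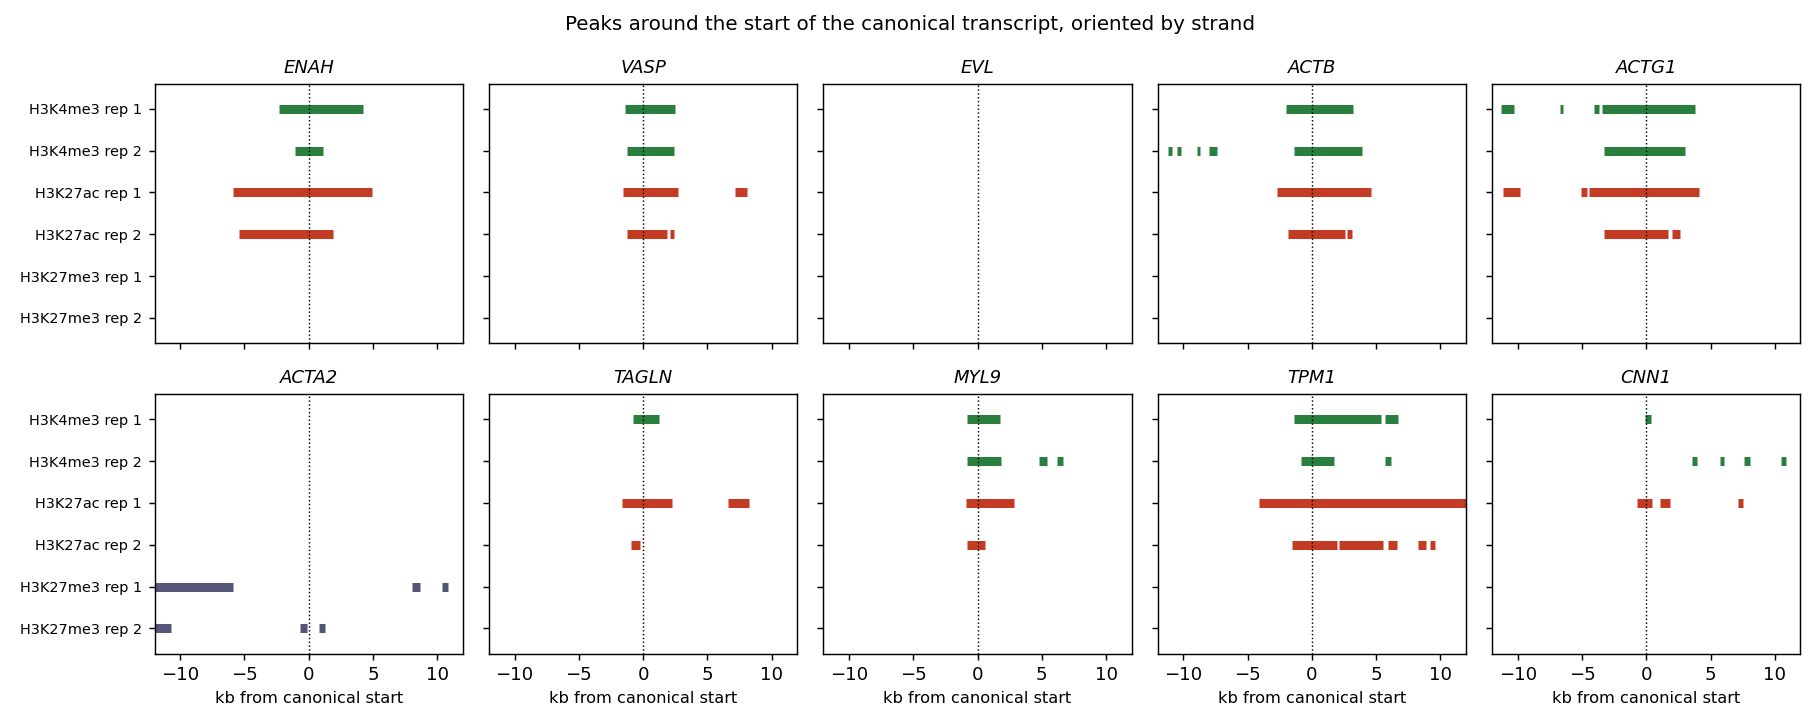
Peaks (bars) of H3K4me3, H3K27ac and H3K27me3 in each replicate, by distance in kb from the start of the canonical transcript (dotted line, x axis, gene to the right) for the 10 genes. Peaks over the start are wide at ENAH, VASP, ACTB, ACTG1 and TPM1, missing at EVL and ACTA2, and differ between replicates at TAGLN and CNN1. At ACTA2, H3K27me3 peaks of replicate 2 lie within 1 kb of the start without covering it.

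The smooth muscle type members were less alike. MYL9 (chr20:35169900-35179850) had H3K4me3 peaks of 2538 and 2669 bp and H3K27ac peaks of 3732 and 1398 bp over its start. TAGLN (chr11:117070086-117078180) had an H3K4me3 peak in replicate 1 alone, at 117069265-117071293, and its H3K27ac peak of replicate 2, at 117069162-117069815, ended before the TSS. CNN1 (chr19:11649582-11661138) had an H3K4me3 peak of 470 bp at its first TSSs in replicate 1. In replicate 2 its H3K4me3 peak near a TSS lay further inside, at 11657250-11657737, so the replicates met the count at different sites. H3K27ac was called at CNN1 in replicate 1 only. TAGLN, with 140.2 FPKM, thus lacked a peak in 1 H3K4me3 list, although that list has the most peaks, 73942. By the paper's figures, the library of that list had fewer aligned read pairs than replicate 1 and a lower share of reads in peaks.

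ACTA2 (chr10:90694831-90751096, minus strand) was the member with H3K27me3. Replicate 1 had 5 peaks over the gene, covering 40.95% of it, and replicate 2 had 4, covering 6.86%. In replicate 2, peaks at 90711273-90711726 and 90712677-90713248 lay within 1 kb of the main TSS at 90712530, and in replicate 1 none did. The H3K4me3 and H3K27ac peaks counted for ACTA2 lay at its upstream TSS, within the window that FAS shares, and not at the main TSS. Over all protein-coding genes 16% had an H3K27me3 peak over the gene in both replicates. ACTA2 was the only one of the 10 with such peaks, and the one with the lowest FPKM.

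Over the whole annotated gene, H3K27ac was called in both replicates for 8 of 10 genes, all except TAGLN and CNN1, against 59% of protein-coding genes. The gene includes its TSSs, so peaks already counted near a TSS could meet this count as well. VASP, EVL, ACTB, ACTG1 and TPM1 had H3K27ac peaks more than 1 kb from any TSS in both replicates. ENAH had 11 such peaks in replicate 1 and 0 in replicate 2, and MYL9 and ACTA2 had 0 in each.

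The 300 bases before each canonical TSS were searched on both strands for the CArG box, the site of SRF, and for 3 short runs of letters. A CArG box was found at 4 of 10 genes, ACTB, ACTG1, TAGLN and MYL9, and at 1.4% of 19881 promoters of protein-coding genes. Actin and smooth muscle genes are textbook carriers of this site, and the members were picked by name with that known. The TATA box letters TATAAA were found at 2 of 10 genes (ACTB and EVL) against 11% of promoters. The core of the Sp1 site, GGGCGG, was found at 7 of 10 against 60.9%. The core of the TEAD site, CATTCC, was found at 2 of 10 (ACTA2 and TPM1) against 12.2%. A match is a run of letters and not a bound site. The 4 genes with a CArG box ranged from 91.8 to 1869 FPKM. The box was searched as an exact pattern, CC, then 6 letters that are each A or T, then GG. For the other 6 genes no exact match was in this window. Near matches, such as ccctatatgg at ACTA2, were not counted, so these genes may still carry a variant of the site.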

How the data were processed

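RNA-seq had 2 libraries and ChIP-seq 2 replicates of each of 3 marks, all of HK2 cells. For RNA-seq, the authors aligned reads with HISAT2 and ran StringTie 1.3.3 against GENCODE version 27. The deposited values are FPKM, TPM and coverage per transcript, and coverage per exon, with GRCh38 coordinates, although the paper names hg19. ChIP-seq reads were mapped by the authors with Bowtie2 on hg19, and MACS2 called peaks replicate by replicate. Peak lists hold coordinates without a signal value, so how many reads support any given peak cannot be stated. For whole libraries the paper lists aligned read pairs and the share of mapped reads in peaks. Its replicate numbers were taken to match those used here. For H3K27ac that share was far higher in replicate 1, at similar depth. For H3K4me3 replicate 1 had the higher share and more aligned pairs. For H3K27me3 both shares were low. Whether this accounts for peaks missing from a list was not tested. The unnumbered replicate of each mark was taken as replicate 1.

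FPKM was summed per gene with Python 3.11.15, numpy 2.4.6 and pandas 2.3.3, and figures were drawn with matplotlib 3.10.9. Coverage over FPKM gave 5.67 and 5.52 Gb of aligned bases for libraries 1 and 2. TSSs came from GENCODE version 44 on GRCh37, joined by Ensembl identifier, with no conversion of coordinates. Symbols missing from the RNA data were taken from that annotation. Peaks on 24 chromosomes were used. Sequences are from GRCh37.

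The design has 1 condition, so no test was made and no p-value is given. The call of a 2-fold difference was tested on simulated data. The members and lists were chosen with earlier results of these data known. Named were all members, their transcripts with a mean FPKM of at least 1 or over 2-fold apart, and of each list the highest and lowest gene, those at 0 and those over 2-fold apart. MYH11, LUM, COL1A1, LRP2, MKL2 and the other exons and genes given with values beyond this rule were chosen after their values were seen. Alternatives covered the unit, pseudocount, filters, TSS set and window, overlap, and each replicate left out. Exon coverage, the canonical TSS, aligned bases and the count of exons spanning a TPM1 exon were added after the data were seen. Some genes and sequences that meet this rule are not reported here.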

Additional observations from a re-analysis of the deposited data

How the results depend on the processing

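No paired analysis was possible because the data hold 1 condition and no contrast between groups. Without 1 RNA library, 9 members were at or above 1 FPKM either way, as with thresholds of 0.5 and 5. By TPM the 10 genes kept their order, and by exon coverage 5 of 10 kept their place, with means of 1156 for ACTB, 639.9 for ACTG1, 76.9 for MYL9, 62.4 for TPM1, 35.2 for TAGLN, 14.9 for VASP, 4.51 for CNN1 and 2.72 for EVL on the FPKM scale. Members over 2-fold apart were 1 (ENAH), 2 with no filter on low values (ENAH and ACTA2) and 0 by exon coverage. Member transcripts over 2-fold apart were 12, 24 at a mean FPKM of at least 0.1, 6 at 5 and 8 with log2(FPKM + 1). The usage distance of ENAH was 0.760 by FPKM or coverage and 0.718 by aligned bases. Members with H3K27me3 near a TSS in both replicates were 0, and 1 (ACTA2) with a 2 kb window or in either replicate. Leaving out 1 replicate gave 0 to 1. With 1 replicate left out, H3K4me3 and H3K27ac near a TSS were each counted at 9 to 10 members, and H3K27ac over the gene at 8 to 10. Requiring at least 50% of the peak inside the gene left 7. With 2 libraries and no counts, depth limits ACTA2 and other genes under 1 FPKM most, and no interval could be given.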
